A study of Oryza sativa Japonica Group with 3 samples.

Results

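The second day of rice seed imbibition was described from 1 RNA-seq library of germinated seeds at 48 h and 1 library of imbibed seeds at 24 h. The seeds were of Jiucaiqing, a japonica landrace, kept in distilled water at 30 °C, and each library combined 3 biological replicates before sequencing. Another library, of dry seeds at 0 h, is given only for context. The labels give the strain, the tissue (seed) and the time in water, and no other treatment or genotype. A level is given in FPKM, sequenced fragments scaled to transcript length and library size, with the isoforms of a locus summed. A locus was kept at 1 FPKM or more at 48 h or at 24 h, which held for 19820 of 55986 loci. A difference is log2(FPKM + 1) at 48 h minus the same at 24 h, and a locus is called higher or lower where that difference reaches 2-fold, a log2 difference of 1 in either direction. With 1 pooled library per time there is no replicate error and no test, so each difference is one between 2 libraries. The files hold no read totals, so the depth and the counting error of low values are unknown.

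The files list loci by ID only. Names of 194 loci were taken from general knowledge of published MSU numbers. They were used where a RefSeq gene table lists the name on the chromosome that the ID states and in the same order along it. Where the name itself was not found, an alias, also taken from general knowledge, was accepted, such as RAB21 for Rab16A and CHLG for YGL1. That table does not pair the IDs with names, so single pairings are less certain than the values. Of the 194 named loci, 169 were kept. They fall into 22 lists by role, chosen with earlier results of these data known. The chromosome is the number after "Os" in each ID.

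Germination of a cereal grain is driven by the embryo. As water enters, the transcripts stored in the dry seed for desiccation tolerance are turned over, abscisic acid (ABA), the hormone that holds the seed dormant, loses its hold, and gibberellin from the embryo induces the hydrolases of the aleurone and scutellum that release sugar from the starchy endosperm. Cell walls then loosen, the coleoptile and radicle elongate, and cell division and greening follow.

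Of the 169 named loci kept, 52 were higher and 45 lower at 48 h, and 72 lay within 2-fold. Over all 19820 kept loci, 14.5% were higher and 11.5% lower, and the median difference was 0.04. One locus, LOC_Os09g00999, held 20.4% of the summed FPKM at 48 h and 10.7% at 24 h. When both libraries were scaled to the same sum without it, the median over all kept loci was 0.27, and 61 named loci were higher and 34 lower. This scaling, the strongest tried, multiplied the 48 h library by 1.103 and the 24 h library by 0.9065. Such factors are too small to reverse a called difference, so the scalings do not test direction. Reads of whole seeds mix all tissues, and fewer cells of a type and less RNA per cell cannot be told apart.

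**Figure D1:**
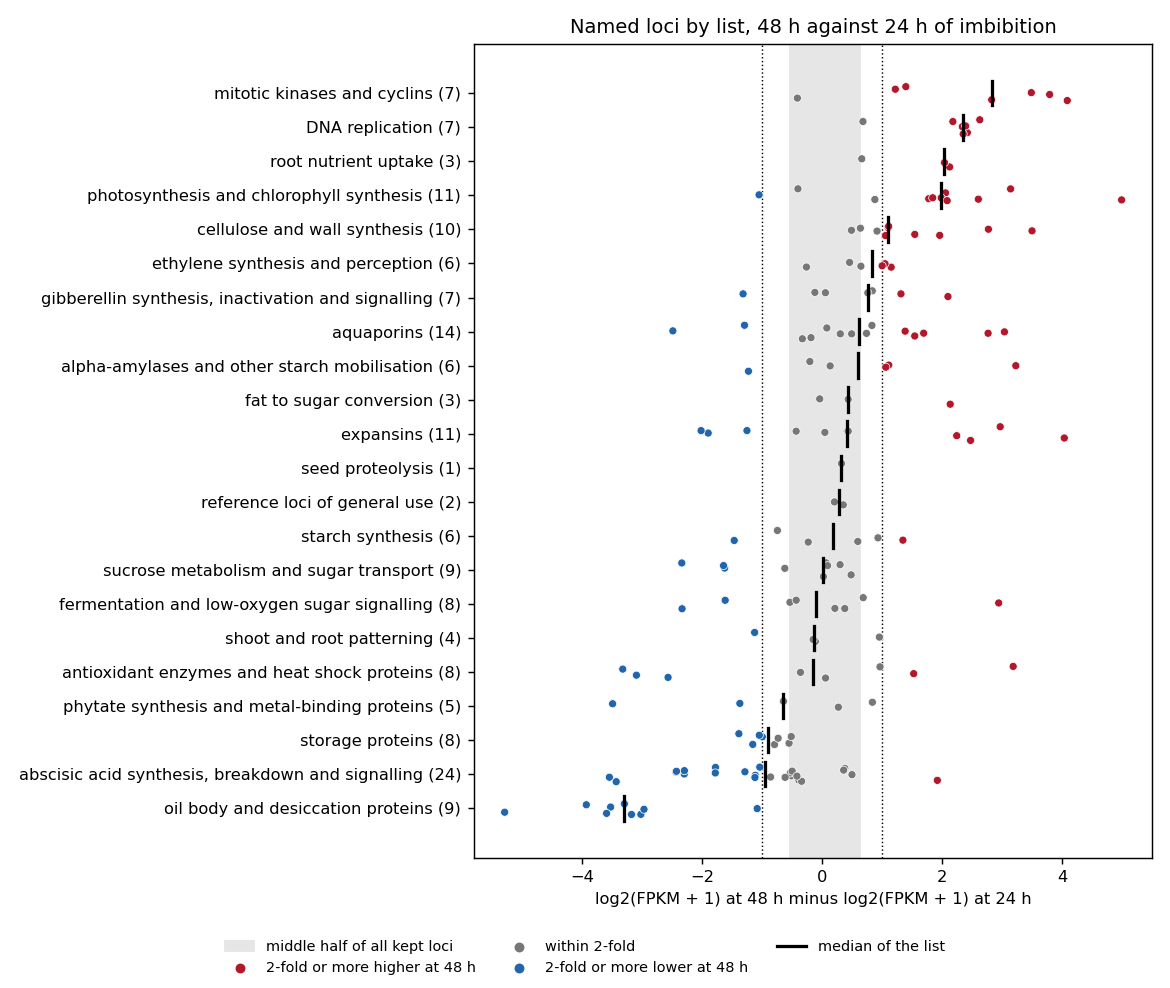
Difference between 48 h and 24 h on the log2(FPKM + 1) scale (x axis) for each named locus kept (points), by list (y axis, with the number kept). Dotted lines mark 2-fold, the grey band the lower to upper quartile of all kept loci, and black bars the medians, which run from -3.30 for oil body and desiccation proteins to 2.83 for mitotic kinases and cyclins.

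Transcripts for proteins of the dry state had the most negative median difference of the lists. All 9 oil body and desiccation loci were lower at 48 h, with a median difference of -3.30, and their summed level was 84.4 FPKM at 48 h against 1416 FPKM at 24 h. Em1 (LOC_Os05g28210) encodes the hydrophilic Em protein of the late embryogenesis abundant (LEA) class, which accumulates in maturing embryos. It was at 18.1 FPKM at 48 h against 749 FPKM at 24 h, a difference of -5.30 and the 3rd lowest of all kept loci. Dry seeds had 9781 FPKM. LEA3-1 (LOC_Os05g46480) and LEA3-2 (LOC_Os03g20680), LEA proteins of another class, differed by -3.60 and -3.94. LEA3-1 was at 18.8 FPKM at 48 h against 238 FPKM at 24 h, and LEA3-2 at 4.80 FPKM at 48 h against 87.7 FPKM at 24 h.

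The 4 Rab16 dehydrins, ABA-responsive proteins encoded side by side on chromosome 11, were all lower, with differences between -3.53 and -2.97. Rab16A (LOC_Os11g26790) was at 12.6 FPKM at 48 h against 133 FPKM at 24 h, and Rab16B (LOC_Os11g26780) at 5.63 FPKM at 48 h against 75.6 FPKM at 24 h. Rab16C (LOC_Os11g26760) was at 4.54 FPKM at 48 h against 44.1 FPKM at 24 h, and Rab16D (LOC_Os11g26750) at 0.83 FPKM at 48 h against 13.4 FPKM at 24 h. These tandem genes are similar, so reads may have been divided among them by estimate. Their sum was 23.6 FPKM at 48 h against 266 FPKM at 24 h. In dry seeds it was 10671 FPKM. Ole18 (LOC_Os03g49190), an oleosin that coats oil bodies, was at 3.61 FPKM at 48 h against 40.8 FPKM at 24 h. Dhn1 (LOC_Os02g44870), a dehydrin outside that cluster, differed least, by -1.08, with 15.5 FPKM at 48 h against 34.0 FPKM at 24 h. It was under 2-fold with a pseudocount of 5 FPKM, in place of 1, and when both libraries were scaled to the same sum, with or without LOC_Os09g00999.

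**Figure D2:**
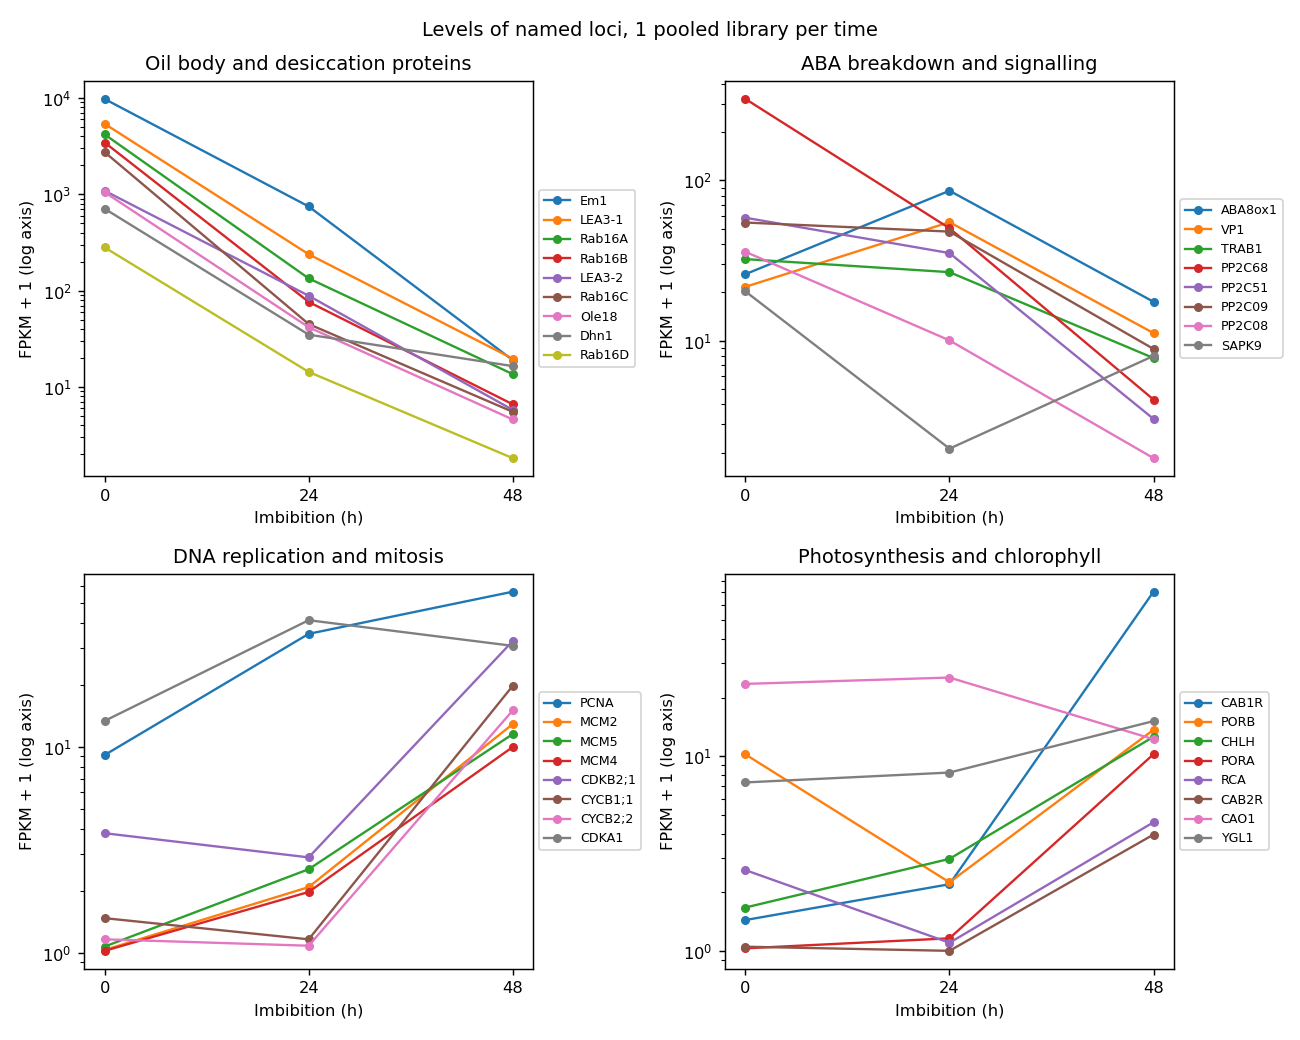
FPKM + 1 on a log axis (y) against hours of imbibition (x) for named loci in 4 panels, 1 pooled library per time. Em1 and the other desiccation loci are lower at 48 h than at 24 h, while cyclins such as CYCB1;1, at 18.7 FPKM at 48 h against 0.16 FPKM at 24 h, and CAB1R, at 69.2 FPKM at 48 h against 1.2 FPKM at 24 h, are higher.

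Heat shock proteins, chaperones that also accumulate in maturing seeds, were lower as well. HSP26.7 (LOC_Os03g14180), a small chloroplast-targeted chaperone, was at 55.4 FPKM at 48 h against 565 FPKM at 24 h. HSP101 (LOC_Os05g44340), a disaggregase of the Clp family, was at 5.26 FPKM at 48 h against 52.6 FPKM at 24 h, and HSP18.0 (LOC_Os01g08860), a cytosolic small heat shock protein, at 37.1 FPKM at 48 h against 225 FPKM at 24 h. The 3 differences were -3.33, -3.10 and -2.57. Tonoplast aquaporins of the TIP3 type, water channels of protein storage vacuoles, were also lower: TIP3;1 (LOC_Os10g35050) was at 6.32 FPKM at 48 h against 40.2 FPKM at 24 h. TIP3;2 (LOC_Os04g44570) was low in both libraries, at 0.34 FPKM at 48 h against 2.29 FPKM at 24 h. With a pseudocount of 5 FPKM, in place of 1, its difference was under 2-fold, at -0.45.

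Of 8 named storage protein loci, all kept, 4 were lower and none higher, with a median of -0.90. GluA1 (LOC_Os01g55690), a glutelin, the main storage globulin of rice endosperm, was at 26.5 FPKM at 48 h against 71.1 FPKM at 24 h, a difference of -1.39. RAG2 (LOC_Os07g11380), a seed albumin of the amylase inhibitor family, was at 17.2 FPKM at 48 h against 36.6 FPKM at 24 h. GluD1 (LOC_Os02g15090) and GluB5 (LOC_Os02g16820) were the other two, with differences of -1.16 and -1.0, and the other 4 glutelins lay between -0.80 and -0.52. RAG2 and GluB5 were under 2-fold under all 4 scalings tried, and GluD1 under the scaling without LOC_Os09g00999. Each of these was also under 2-fold with a pseudocount of 5 FPKM. Genes of phytate synthesis, which store phosphorus in the seed, were lower in 2 of 3 cases. RINO1 (LOC_Os03g09250), myo-inositol 3-phosphate synthase, was at 30.8 FPKM at 48 h against 358 FPKM at 24 h, a difference of -3.50. LPA1 (LOC_Os02g57400), a kinase-like protein needed for phytate, was at 10.2 FPKM at 48 h against 28 FPKM at 24 h. MRP5 (LOC_Os03g04920), an ABC transporter of phytate, was within 2-fold at 18.4 FPKM at 48 h against 29.3 FPKM at 24 h.

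Loci of ABA metabolism and signalling were called lower far more often than higher. Of 24 kept of 26 named, 12 were lower, 1 higher and 11 within 2-fold, with a median of -0.95. Of 3 breakdown enzymes, 2 were lower: ABA8ox1 (LOC_Os02g47470), an ABA 8'-hydroxylase that starts ABA catabolism, was at 16.5 FPKM at 48 h against 85.1 FPKM at 24 h, a difference of -2.30. Dry seeds had 25 FPKM, so its 24 h library was the highest. ABA8ox2 (LOC_Os08g36860) was at 1.33 FPKM at 48 h against 4.05 FPKM at 24 h. It was under 2-fold under the scaling without LOC_Os09g00999 and with a pseudocount of 5 FPKM. The synthesis gene NCED3 (LOC_Os03g44380), a dioxygenase that makes the ABA precursor, was low in both libraries, at 0.93 FPKM at 48 h against 1.53 FPKM at 24 h. Dry seeds had 67.5 FPKM.

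Among the signalling loci, 6 of 7 kept clade A protein phosphatases 2C, which hold ABA signalling off until a receptor binds them and whose genes are induced by ABA, were lower. PP2C68 (LOC_Os09g15670) was at 3.29 FPKM at 48 h against 49.3 FPKM at 24 h, a difference of -3.55, and PP2C51 (LOC_Os05g49730) at 2.25 FPKM at 48 h against 34.2 FPKM at 24 h. PP2C09 (LOC_Os01g62760) was at 7.88 FPKM at 48 h against 46.9 FPKM at 24 h, and PP2C08 (LOC_Os01g46760) at 0.85 FPKM at 48 h against 9.04 FPKM at 24 h. PP2C06 (LOC_Os01g40094) and PP2C53 (LOC_Os05g51510) passed by little, at -1.12 and -1.04, and were under 2-fold under the scaling without LOC_Os09g00999, PP2C53 also under the other 3 scalings. Both were also under 2-fold with a pseudocount of 5 FPKM. Only PP2C50 (LOC_Os05g46040) of the kept phosphatases was within 2-fold, at 2.72 FPKM at 48 h against 4.71 FPKM at 24 h. Both transcription factors kept, VP1 (LOC_Os01g68370), a B3 regulator of seed maturation, and TRAB1 (LOC_Os08g36790), a bZIP factor that interacts with VP1 in rice, were lower. VP1 was at 10.2 FPKM at 48 h against 53.9 FPKM at 24 h, and TRAB1 at 6.79 FPKM at 48 h against 25.8 FPKM at 24 h.

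The SAPK kinases, SnRK2 proteins that the phosphatases inhibit, did not share one direction. Of 10, all kept, 2 were lower, 1 was higher and 7 were within 2-fold. Over all kept loci, 11.5% were lower and 14.5% higher, so such counts do not set the family apart. SAPK3 (LOC_Os10g41490) differed by -1.78 and SAPK10 (LOC_Os03g41460) by -1.29, SAPK10 being at 13.4 FPKM at 48 h against 34.3 FPKM at 24 h. SAPK9 (LOC_Os12g39630) was higher, at 7.03 FPKM at 48 h against 1.12 FPKM at 24 h, and dry seeds had 19.3 FPKM. With a pseudocount of 5 FPKM its difference was just under 2-fold, at 0.975.

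Of 7 kept of 10 named gibberellin loci, 2 were higher, 1 lower and 4 within 2-fold. The shares over all kept loci were 14.5% higher and 11.5% lower, and counts this small do not set the list apart. The 2 higher encode oxidases of gibberellin synthesis: KO2 (LOC_Os06g37364), ent-kaurene oxidase, at 17.1 FPKM at 48 h against 3.23 FPKM at 24 h, and KAO (LOC_Os06g02019), ent-kaurenoic acid oxidase, at 4.57 FPKM at 48 h against 1.24 FPKM at 24 h. KAO was under 2-fold with a pseudocount of 5 FPKM, at 0.62. The later oxidase GA20ox2 (LOC_Os01g66100) was at 1.07 FPKM at 48 h against 0.16 FPKM at 24 h. At such low levels its call depends on the pseudocount: it was within 2-fold with 1 FPKM, but its difference was 2.17 with 0.1 FPKM. The first enzymes of the pathway, CPS1 (LOC_Os02g17780) and KS1 (LOC_Os04g52230), stayed under 1 FPKM in both libraries. The receptor GID1 (LOC_Os05g33730) was lower, at 32.2 FPKM at 48 h against 81.8 FPKM at 24 h. Its partners lay within 2-fold, though GID2 was at 1.04 under the scaling without LOC_Os09g00999: SLR1 (LOC_Os03g49990), the DELLA repressor, was at 43.4 FPKM at 48 h against 47.4 FPKM at 24 h, and GID2 (LOC_Os02g36974), the F-box protein that marks SLR1 for breakdown, at 84.8 FPKM at 48 h against 49.6 FPKM at 24 h. GAMYB (LOC_Os01g59660), the activator of alpha-amylase genes downstream of gibberellin, was at 31.6 FPKM at 48 h against 30.4 FPKM at 24 h.

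The alpha-amylases, which cut endosperm starch, moved in different directions. RAmy1A (LOC_Os02g52710), the major gibberellin-induced form, was at 209.8 FPKM at 48 h against 21.5 FPKM at 24 h, a difference of 3.23, or 9.38-fold on that scale. RAmy3D (LOC_Os08g36910), known for induction by sugar starvation, was lower, at 80.5 FPKM at 48 h against 190.2 FPKM at 24 h, a difference of -1.23 that was -0.95 when scaled to the same sum without LOC_Os09g00999. Its neighbour RAmy3E (LOC_Os08g36900) was the most abundant form in both libraries, at 326 FPKM at 48 h against 297 FPKM at 24 h. RAmy2A (LOC_Os06g49970) and RAmy3A (LOC_Os09g28400) were under 1 FPKM in both. Dry seeds had 0.09 FPKM of RAmy1A, 5.53 FPKM of RAmy3D and 102.6 FPKM of RAmy3E. Summed over the 5 named amylases the level was 617 FPKM at 48 h against 509.9 FPKM at 24 h.

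Other starch enzymes were called in both directions. DPE2 (LOC_Os07g46790), a cytosolic glucanotransferase that uses maltose, was at 17.4 FPKM at 48 h against 7.81 FPKM at 24 h. ISA1 (LOC_Os08g40930), a debranching enzyme known from starch synthesis in rice endosperm, was at 20.8 FPKM at 48 h against 9.10 FPKM at 24 h. Among 6 kept synthesis loci of 7 named, SSI (LOC_Os06g06560), a soluble starch synthase, was lower at 12.2 FPKM at 48 h against 35.5 FPKM at 24 h. SSIIb (LOC_Os02g51070), the leaf form of another synthase, was higher at 10.5 FPKM at 48 h against 3.51 FPKM at 24 h. With a pseudocount of 5 FPKM, DPE2, ISA1 and SSIIb were under 2-fold, at 0.80, 0.87 and 0.86, while SSI stayed past 2-fold. GBSSI (LOC_Os06g04200), the Waxy protein that makes amylose, was at 4.76 FPKM at 48 h against 5.77 FPKM at 24 h.

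**Figure D3:**
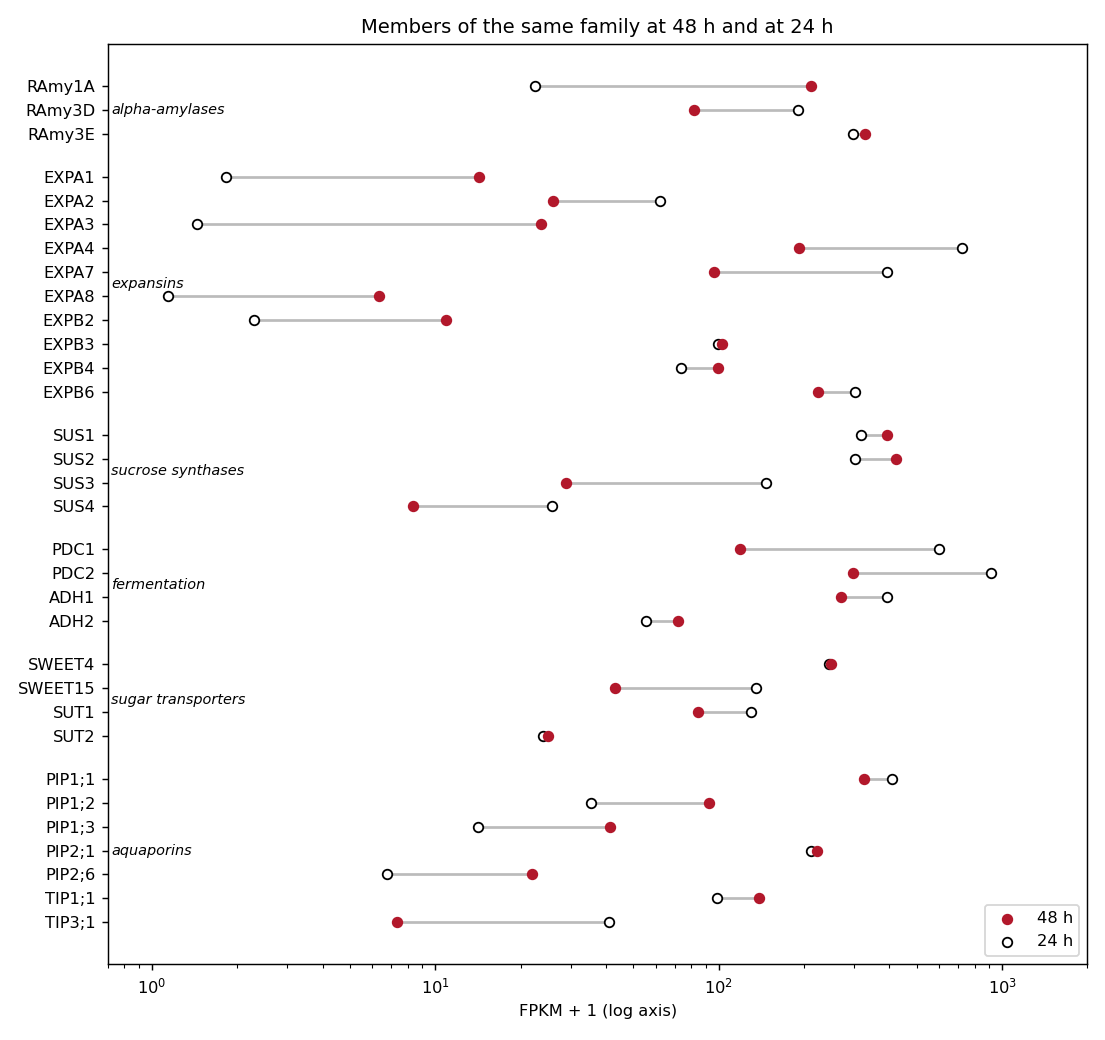
FPKM + 1 on a log axis (x) at 48 h (red) and at 24 h (open) for members of 6 gene families (y), 1 pooled library per time. Members of one family point in different directions: RAmy1A and EXPA3 are higher at 48 h, while RAmy3D, EXPA4, SUS3 and PDC1 are lower.

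Fermentation loci, which let an embryo short of oxygen make energy, were lower for pyruvate decarboxylase. With low-oxygen sugar signalling, 8 of 8 named were kept, of which 1 was higher and 2 lower. Over all kept loci, 14.5% were higher and 11.5% lower, so these counts do not set the list apart. PDC1 (LOC_Os05g39310) was at 118 FPKM at 48 h against 599.7 FPKM at 24 h, a difference of -2.34, and PDC2 (LOC_Os03g18220) at 297 FPKM at 48 h against 915 FPKM at 24 h. The alcohol dehydrogenases that act next stayed within 2-fold. ADH1 (LOC_Os11g10480) was at 269 FPKM at 48 h against 390.5 FPKM at 24 h, and ADH2 (LOC_Os11g10510) at 70.7 FPKM at 48 h against 54.2 FPKM at 24 h. CIPK15 (LOC_Os11g02240), a kinase that links low oxygen to sugar sensing in rice, was higher, at 20.4 FPKM at 48 h against 1.78 FPKM at 24 h. The proteins below it, SnRK1A (LOC_Os05g45420) and the amylase activator MYBS1 (LOC_Os01g34060), were within 2-fold. SnRK1A was at 29.8 FPKM at 48 h against 40.6 FPKM at 24 h, and MYBS1 at 6.68 FPKM at 48 h against 3.78 FPKM at 24 h.

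Of 9 kept of 11 loci of sucrose and sugar transport, 3 were lower and none higher. The shares over all kept loci were 11.5% lower and 14.5% higher. Sucrose synthases, which split sucrose for growing tissue, parted into pairs. SUS1 (LOC_Os03g28330) and SUS2 (LOC_Os06g09450) were within 2-fold. SUS1 was at 390.0 FPKM at 48 h against 317 FPKM at 24 h, and SUS2 at 423 FPKM at 48 h against 302 FPKM at 24 h. SUS3 (LOC_Os07g42490) was lower, at 28 FPKM at 48 h against 146 FPKM at 24 h, and so was SUS4 (LOC_Os03g22120), at 7.32 FPKM at 48 h against 24.7 FPKM at 24 h. Dry seeds had 287 FPKM of SUS4 and at most 5.50 FPKM of each of the others. Of the sugar exporters, SWEET15 (LOC_Os02g30910) was lower, at 42.2 FPKM at 48 h against 134 FPKM at 24 h, while SWEET4 (LOC_Os02g19820) was at 248 FPKM at 48 h against 245 FPKM at 24 h. The 3 sucrose transporters SUT1, SUT2 and SUT4 were within 2-fold, SUT1 (LOC_Os03g07480), the phloem loader also active in the scutellum, at 83.3 FPKM at 48 h against 129 FPKM at 24 h.

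Both named enzymes of the glyoxylate cycle, which turns stored fat into sugar precursors, were within 2-fold. Isocitrate lyase ICL (LOC_Os07g34520) was at 113 FPKM at 48 h against 83.4 FPKM at 24 h, and malate synthase MLS (LOC_Os04g40990) at 57.1 FPKM at 48 h against 58.7 FPKM at 24 h. PPDKB (LOC_Os05g33570), pyruvate phosphate dikinase, was higher at 15.5 FPKM at 48 h against 2.75 FPKM at 24 h.

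Expansins loosen cell walls as cells elongate, and the alpha-expansins of this list differed in both directions. EXPA4, EXPA7 and EXPA2 had the highest levels among them in both libraries. Of 11 kept of 12 expansins, 4 were higher and 3 lower. The abundant forms of 24 h were lower: EXPA4 (LOC_Os05g39990) was at 192 FPKM at 48 h against 719 FPKM at 24 h, and EXPA7 (LOC_Os03g60720) at 95.5 FPKM at 48 h against 391 FPKM at 24 h. EXPA2 (LOC_Os01g60770) was at 25 FPKM at 48 h against 61.0 FPKM at 24 h, a difference of -1.25 that was -0.98 under the scaling without LOC_Os09g00999. Forms that were at 0.82 FPKM or less at 24 h were higher: EXPA3 (LOC_Os05g19570) was at 22.7 FPKM at 48 h against 0.44 FPKM at 24 h, and EXPA1 (LOC_Os04g15840) at 13.3 FPKM at 48 h against 0.82 FPKM at 24 h. EXPA8 (LOC_Os01g14650) was at 5.34 FPKM at 48 h against 0.14 FPKM at 24 h. The lower members weighed more in the sum, which was 362 FPKM at 48 h against 1179 FPKM at 24 h over 8 alpha-expansins. Of 4 beta-expansins, EXPB2 (LOC_Os10g40710) was higher at 9.90 FPKM at 48 h against 1.3 FPKM at 24 h, and its neighbours EXPB3, EXPB4 and EXPB6 were within 2-fold at 98.1 FPKM or more at 48 h. Tandem neighbours such as these, RAmy3D with RAmy3E, and the glutelins may share reads, so their separate values are less certain.

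Wall synthesis loci were mostly higher. Of 10 kept of 13 named loci, 7 were higher and none lower, with a median of 1.1. The 3 cellulose synthase subunits of primary walls were all higher: CESA8 (LOC_Os07g10770) was at 99.2 FPKM at 48 h against 33.4 FPKM at 24 h, CESA3 (LOC_Os07g24190) at 33.8 FPKM at 48 h against 7.93 FPKM at 24 h, and CESA1 (LOC_Os05g08370) at 108.7 FPKM at 48 h against 50.1 FPKM at 24 h. The subunits of secondary walls, CESA4, CESA7 and CESA9, were at 2.1 FPKM or less in both libraries, and of these CESA7 (LOC_Os10g32980) was called higher, at 1.1 FPKM at 48 h against 0.01 FPKM at 24 h. CAD2 (LOC_Os02g09490), cinnamyl alcohol dehydrogenase of lignin synthesis, was higher at 42.4 FPKM at 48 h against 5.35 FPKM at 24 h.

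Plasma membrane aquaporins carry water into expanding cells. Of 8 kept of 11, 4 were higher and none lower. PIP1;2 (LOC_Os04g47220) was at 91.6 FPKM at 48 h against 34.5 FPKM at 24 h, and PIP1;3 (LOC_Os02g57720) at 40.3 FPKM at 48 h against 13.2 FPKM at 24 h. PIP2;6 (LOC_Os04g16450) was at 20.9 FPKM at 48 h against 5.76 FPKM at 24 h. The forms highest in both libraries, PIP1;1 (LOC_Os02g44630) and PIP2;1 (LOC_Os07g26690), were within 2-fold, PIP1;1 at 325 FPKM at 48 h against 409 FPKM at 24 h. PIP2;2 (LOC_Os02g41860) and the tonoplast TIP2;1 (LOC_Os02g44080) were listed at 0 at 24 h. At 48 h PIP2;2 was at 5.81 FPKM and TIP2;1 at 7.23 FPKM. TIP1;1 (LOC_Os03g05290), a general tonoplast channel, was at 138 FPKM at 48 h against 97.7 FPKM at 24 h.

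Cell division loci gave the highest medians. Of 7 mitotic kinases and cyclins, all kept, 6 were higher, with a median of 2.83. Among the 6, CDKB1;1 (LOC_Os01g67160) and CDKA2 (LOC_Os02g03060) were under 2-fold with a pseudocount of 5 FPKM, at 0.95 and 0.75. CYCB1;1 (LOC_Os01g59120), a cyclin of the G2 to M transition, was at 18.7 FPKM at 48 h against 0.16 FPKM at 24 h, a difference of 4.09. CYCB2;2 (LOC_Os06g51110) was at 14.0 FPKM at 48 h against 0.08 FPKM at 24 h and CYCB2;1 (LOC_Os04g47580) at 6.88 FPKM at 48 h against 0.11 FPKM at 24 h. CDKB2;1 (LOC_Os08g40170), a plant-specific mitotic kinase, was at 31.6 FPKM at 48 h against 1.90 FPKM at 24 h. CDKA1 (LOC_Os03g02680), a kinase needed throughout the cycle, was within 2-fold at 29.9 FPKM at 48 h against 40.1 FPKM at 24 h. In dry seeds the 3 cyclins summed to 0.73 FPKM.

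DNA replication loci showed 6 of 7 higher. All 6 are subunits of the MCM helicase that opens replication origins, and their differences lay between 2.18 and 2.63. MCM2 (LOC_Os11g29380) was at 11.9 FPKM at 48 h against 1.08 FPKM at 24 h, and MCM5 (LOC_Os02g55410) at 10.5 FPKM at 48 h against 1.54 FPKM at 24 h. The 6 subunits summed to 51.9 FPKM at 48 h against 5.09 FPKM at 24 h. Dry seeds had 0.57 FPKM. PCNA (LOC_Os02g56130), the sliding clamp of DNA polymerase, was within 2-fold, at 55.6 FPKM at 48 h against 34.3 FPKM at 24 h, and dry seeds had 8.11 FPKM.

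Greening loci were mostly higher. Of 11, all kept, 8 were higher, 1 lower and 2 within 2-fold, with a median of 1.99, or 1.95 without CAB2R (LOC_Os01g41710), which was listed at 0 at 24 h and at 2.96 FPKM at 48 h. CAB1R (LOC_Os09g17740), a light-harvesting chlorophyll protein, was at 69.2 FPKM at 48 h against 1.2 FPKM at 24 h. Its difference of 5.0 was the highest positive one of the named loci and the 13th highest of all kept. Both light-dependent protochlorophyllide reductases, enzymes of chlorophyll synthesis, were higher: PORB (LOC_Os10g35370) was at 12.7 FPKM at 48 h against 1.25 FPKM at 24 h, and PORA (LOC_Os04g58200) at 9.25 FPKM at 48 h against 0.16 FPKM at 24 h. Dry seeds had 9.22 FPKM of PORB and 0.03 FPKM of PORA. The 3 subunits of magnesium chelatase were higher together, CHLH (LOC_Os03g20700) at 11.6 FPKM at 48 h against 1.97 FPKM at 24 h. CAO1 (LOC_Os10g41780), which makes chlorophyll b, was lower at 11.2 FPKM at 48 h against 24.4 FPKM at 24 h, a difference of -1.05 that was under 2-fold with a pseudocount of 5 FPKM and when both libraries were scaled to the same sum, with or without LOC_Os09g00999. RCA (LOC_Os11g47970), Rubisco activase, was at 3.58 FPKM at 48 h against 0.10 FPKM at 24 h.

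Root uptake loci were low. Of 10 named, 3 were kept, of which 2 were higher and none lower. AMT1;1 (LOC_Os04g43070), an ammonium transporter, was higher at 8.46 FPKM at 48 h against 1.3 FPKM at 24 h. NRAMP5 (LOC_Os07g15370), a manganese transporter, was higher at 4.63 FPKM at 48 h against 0.29 FPKM at 24 h, but under 2-fold with a pseudocount of 5 FPKM. The silicon transporters LSI1 and LSI2 and the iron transporter IRT1, markers of a working seedling root, summed to 0.33 FPKM at 48 h against 0.03 FPKM at 24 h. RCc3, also chosen as a root marker, did not pass the name check and is left out. The 4 markers of green shoot, CAB2R, CAB1R, PORA and RCA, were all higher and summed to 85.0 FPKM at 48 h against 1.46 FPKM at 24 h. CAB1R alone was at 69.2 FPKM at 48 h. CAB2R and RCA were under 2-fold with a pseudocount of 5 FPKM, at 0.67 and 0.75. In the whole greening list, 8 of 11 were higher and 1 was lower. The markers of dividing tissue, 2 of 3 higher, summed to 101 FPKM at 48 h against 36.3 FPKM at 24 h. PCNA, the marker within 2-fold, held 55.6 FPKM of that sum at 48 h and 34.3 FPKM at 24 h. Markers of secreting aleurone and scutellum, RAmy1A, RAmy3D and RAmy3E, did not share one direction. Of these, 1 was higher, 1 lower and 1 within 2-fold. Markers of the endosperm store, 4 of 9 lower, summed to 65.3 FPKM at 48 h against 148 FPKM at 24 h. How the share of each tissue in the seed bears on these differences was not tested.

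Enzymes against reactive oxygen differed by member, and with the 3 heat shock proteins above made 2 higher and 3 lower of 8. CATA (LOC_Os02g02400), a catalase, was at 74.4 FPKM at 48 h against 7.28 FPKM at 24 h, a difference of 3.19, whereas CATB (LOC_Os06g51150) was at 101 FPKM at 48 h against 97.3 FPKM at 24 h. Cytosolic ascorbate peroxidase APX2 (LOC_Os07g49400) was higher at 203 FPKM at 48 h against 69.8 FPKM at 24 h, and APX1 (LOC_Os03g17690) missed 2-fold with a difference of 0.96, but passed it under all 4 scalings, with up to 1.25. Mitochondrial superoxide dismutase MSD1 (LOC_Os05g25850) was at 265 FPKM at 48 h against 341 FPKM at 24 h.

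Of 6 kept ethylene loci of 7 named, 3 were higher and none lower, but with a pseudocount of 5 FPKM none of the 3 reached 2-fold: ERS1 was then at 0.84, ERS2 at 0.46 and ACO1 at 0.32 (log2 differences). ACO1 (LOC_Os09g27820), which makes ethylene from its precursor, was listed at 0 at 24 h and was at 1.22 FPKM at 48 h. The ethylene receptor ERS1 (LOC_Os03g49500) was at 22.3 FPKM at 48 h against 10.3 FPKM at 24 h, and ERS2 (LOC_Os05g06320) reached 2-fold exactly, at 3.80 FPKM at 48 h against 1.40 FPKM at 24 h. Of the 4 patterning loci, OSH1 (LOC_Os03g51690), a homeobox gene of the shoot meristem, was lower at 3.0 FPKM at 48 h against 7.74 FPKM at 24 h, and under 2-fold with a pseudocount of 5 FPKM or the scaling without LOC_Os09g00999. VPE1 (LOC_Os04g45470), the vacuolar protease that matures glutelins, was at 8.43 FPKM at 48 h against 6.62 FPKM at 24 h.

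Loci often used as steady references differed little. ACT1 (LOC_Os03g50885), an actin, was at 385 FPKM at 48 h against 302 FPKM at 24 h, and EF1A (LOC_Os03g08010), an elongation factor with near-identical copies among which reads may be divided, at 1664 FPKM at 48 h against 1444 FPKM at 24 h. The most abundant named locus was MT2b (LOC_Os05g02070), a metallothionein, at 14503 FPKM at 48 h against 12028 FPKM at 24 h. It ranked 3rd by level in both libraries.

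**Figure D4:**
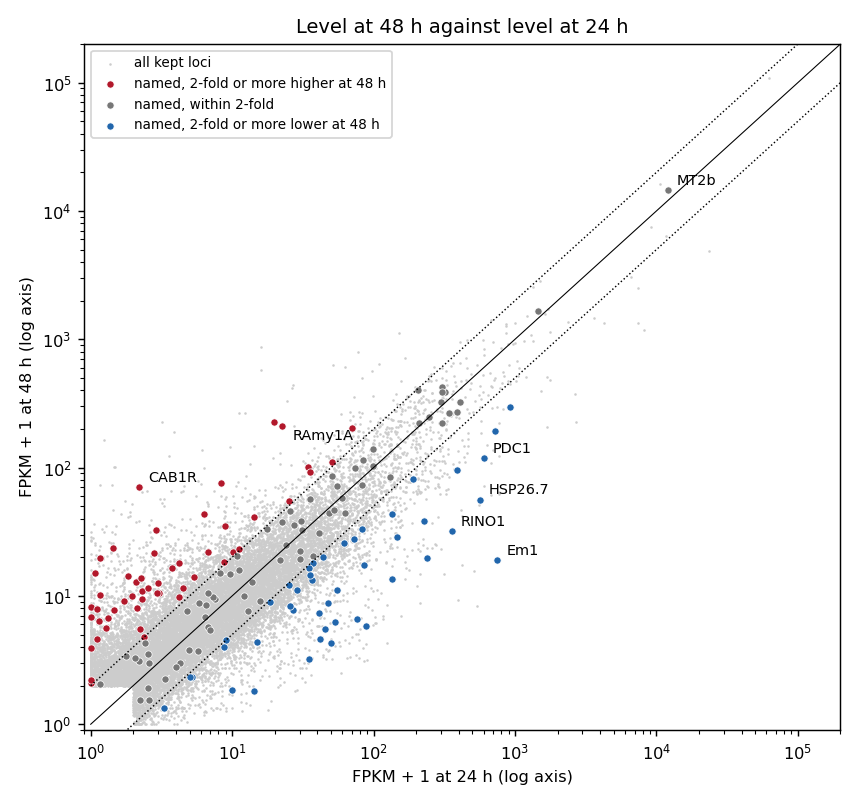
FPKM + 1 at 48 h (y) against FPKM + 1 at 24 h (x), both on log axes, for all 19820 kept loci (grey) and the 169 named loci kept (coloured by call). The solid line marks equal levels and the dotted lines 2-fold; CAB1R and RAmy1A lie above it, and Em1, RINO1, HSP26.7 and PDC1 below.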

How the data were processed

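Poly(A)-enriched RNA of whole seeds was sequenced, per the labels' protocols, with RNA of 3 biological replicates joined in each library, as the design text states. The authors deposited FPKM values per transcript isoform to 2 decimals. Per the submitters' processing notes, FastQC, RSEM 1.1.11 and edgeR 2.3.52 were used, with no roles given. Aligner, build and any scaling between libraries are not stated in those sources. RSEM, if it made these values, divides shared reads by estimate, so values of near-identical copies are uncertain. Read totals are not in the files, so depth is unknown and no counting interval can be given.

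Isoforms were summed per locus and compared on log2(FPKM + 1) where either library reached 1 FPKM, with Python 3.11.15, numpy 2.4.6 and pandas 2.3.3. Names of 253 loci were recalled from published MSU numbers, and 194 were kept after a check of name or alias against 39387 RefSeq genes of assembly ASM3414082v1. Of the others, 52 had no such name or alias on that chromosome, 3 were out of order and 4 shared an entry. These 59 are not analysed here, and some named loci are counted in their lists but not reported singly. The RefSeq table does not itself pair MSU numbers with names. Members and lists were chosen with earlier results of these data known. Loci at 10 FPKM or more were named by size of difference, up to 4 per direction and list, with the most abundant; others were added for their role. The code was run on a copy of the 24 h library with known changes, all past 2-fold, set in loci at 10 FPKM or more. That run checks only the code. It cannot speak to low loci, to changes near 2-fold or to the error between real libraries.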

Additional observations from a re-analysis of the deposited data

How the results depend on the processing

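No paired analysis was possible because replicates were pooled before sequencing, and no replicate could be left out. Over 9 alternatives, named loci called higher numbered 37 to 61 and called lower 34 to 47. Of the 97 called loci, 70 stayed past 2-fold in every alternative that gave them a value, and none reversed. A changed pseudocount or filter cannot reverse a sign, and the scalings were too small to reverse a called difference. Only the most abundant isoform per locus could have done so, at loci with 2 isoforms or more. Over all kept loci, a pseudocount of 5 FPKM gave 945 higher and 1149 lower, against 2883 and 2274 with 1 FPKM, since it shrinks the differences of low loci. It took 25 named loci under 2-fold, among them ISA1, DPE2, KAO, SAPK9, SSIIb, ERS1, NRAMP5, RCA, CAB2R, TIP3;2, CESA7, ERS2 and ACO1. A filter of 5 FPKM gave 1678 higher and 1949 lower, since fewer loci were kept, so more loci were then lower than higher. Scaling to the same sum without LOC_Os09g00999 gave 3951 higher and 1464 lower, and to the same sum with it 3275 and 1883. Counts with median-of-ratios factors, a trimmed mean of log ratios, a pseudocount of 0.1 FPKM and the most abundant isoform per locus were within 1.5 times the reported ones. Levels under a few FPKM rest on unknown numbers of reads, and a listed 0 can be a failed estimate.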

Other observations

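Of 66 named loci kept with 2 isoforms or more and above 0 in both libraries, 9 had another leading isoform at 48 h than at 24 h. Those at 10 FPKM or more in both libraries were 3, named here after their values were seen. In malate synthase MLS, isoform 1 held 55.4% of the locus at 48 h, whereas isoform 2 held 80.9% at 24 h. In the aquaporin PIP1;1, isoform 1 held 75.4% at 48 h and isoform 2 held 53.5% at 24 h. In the kinase SAPK2, isoform 9 held 46.2% at 48 h and isoform 2 held 55.6% at 24 h. Such shares rest on how reads common to isoforms were divided, which the values do not show.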
